A study of Mus musculus with 21 samples.

Results

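Mesodermal cells that carried both the Etv2 reporter and PDGFRalpha were compared with mesodermal cells that carried neither, 3 libraries against 3, or 6 of the 21 libraries of the series. All 6 came from embryoid bodies, the aggregates that embryonic stem cells form as they differentiate, collected on day 4 from 1 mouse line, T-GFP;Etv2-tdTomato (TGET), in which GFP reports T and tdTomato reports Etv2. Every cell had been sorted as positive for FLK1. The DP Etv2-positive group was PDGFRalpha+FLK1+ and tdTomato positive, and the SP Etv2-negative group was PDGFRalpha-FLK1+ and tdTomato negative. The 2 other populations of the line, SP Etv2-positive (PDGFRalpha-FLK1+ with tdTomato) and DP Etv2-negative (PDGFRalpha+FLK1+ without it), had 3 libraries each, entered the same fit, and are given beside the results. Members were chosen by these gates alone, with no measured RNA value. Whether GFP was also used as a gate is not given in the sources used here, and the labels do not say whether replicates were separate cultures, so p-values measure the spread between these libraries, which may be technical. The stem cells had been kept on irradiated mouse embryonic fibroblasts and moved to feeder-free plates before differentiation.

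FLK1, the VEGF receptor made from Kdr, marks mesoderm from which blood, vessels and heart can form. PDGFRalpha is carried by cardiac and paraxial mesoderm and is lost as cells take up the blood and vessel fates. Etv2 is an ETS transcription factor that is needed for endothelial and blood cells and switches on Tal1, Lmo2 and other regulators of these lineages in FLK1-positive mesoderm. The comparison therefore sets a population with the reporter of the vessel and blood regulator and the receptor of the cardiac and paraxial mesoderm against a population in which both marks are missing.

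Libraries held 26808438 to 32284183 counts in genes for the DP Etv2-positive and 27415801 to 30613029 for the SP Etv2-negative cells, so that 3 counts stood for 0.0929 to 0.112 CPM (counts as a share of the library, scaled by TMM). The share of counts in ribosomal RNA was 0.184, 0.214 and 0.266% in DP Etv2-positive replicates 1 to 3, against 0.146, 1.28 and 0.337% in SP Etv2-negative replicates 1 to 3 (exact two-sided permutation p = 0.4, where 0.1 is the smallest possible with 3 against 3). Mitochondrial transcripts took 2.39% of counts on average in both groups. Replicates of a group correlated at r = 0.989 to 0.991 in DP Etv2-positive and 0.992 in SP Etv2-negative cells, across genes on a log scale.

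Differences between the populations were tested with edgeR's quasi-likelihood test on the counts of all 12 libraries, with Benjamini-Hochberg adjustment over the 17690 genes tested, and every adjusted p below is of that kind. Fold changes are log2 of DP Etv2-positive over SP Etv2-negative, with the SE after the ± sign. A gene was called at an adjusted p below 0.05, and only called genes are described as higher or lower.

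Etv2 and Pdgfra followed the gates. Etv2 (chr7:30633616-30635852, ENSMUSG00000006311) had 58.02, 68.9 and 48.2 CPM in the DP Etv2-positive libraries, against 27.7, 26.5 and 25.6 CPM in the SP Etv2-negative libraries. The groups did not overlap, and the difference was 1.13 ± 0.14 on the log2 scale (edgeR adjusted p = 0.000578). Means of 88.9 ± 16.99 CPM in SP Etv2-positive and 20.2 ± 2.61 CPM in DP Etv2-negative cells (SD, n = 3 each) put the 2 compared populations between the others. Pdgfra (chr5:75152292-75198215) had 125, 170.0 and 154 CPM in the DP Etv2-positive libraries, against 53.7, 59.7 and 41.6 CPM in the SP Etv2-negative libraries, a difference of 1.53 ± 0.20 (edgeR adjusted p = 0.000582), again without overlap. These differences come from the sort and are a check of the labels. Pdgfra averaged 37.4 ± 10.98 CPM in SP Etv2-positive and 253 ± 34.8 CPM in DP Etv2-negative cells (SD, n = 3 each). Kdr, the transcript of the receptor that both gates require, had 439, 532 and 339.9 CPM in the DP Etv2-positive libraries, against 520.2, 543 and 514 CPM in the SP Etv2-negative libraries. Its groups did overlap and its difference of -0.27 ± 0.12 was not called (95% interval -0.52 to -0.01, edgeR adjusted p = 0.142). T, the brachyury gene of nascent mesoderm whose reporter the line also carries, had 46.1, 43.8 and 23.5 CPM in DP Etv2-positive and 68.8, 79.3 and 38.96 CPM in SP Etv2-negative cells, with overlap, and its difference of -0.73 ± 0.30 was not called (interval -1.38 to -0.08, edgeR adjusted p = 0.118). In bulk RNA, fewer cells of a type and less RNA per cell cannot be told apart, for these genes and all that follow.

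Across all genes, 2758 of 17690 were called (15.6%), 1496 higher (8.46%) and 1262 lower (7.13%) in DP Etv2-positive cells. With upper-quartile scaling the split was 1106 higher and 1585 lower, so 41.1% of calls were higher in place of 54.2%. A change of at least 2-fold was less frequent: 119 genes were higher (0.673%) and 269 lower (1.52%), and 78 were higher without DP Etv2-positive replicate 3. The total depended on single libraries, being 1704 without DP Etv2-positive replicate 1, 1207 without SP Etv2-negative replicate 1, 1819 without its replicate 2, which had the highest share of ribosomal RNA, and 1630 without its replicate 3. The libraries of the 2 groups did not overlap for 5902 genes (33.4%). Of the called genes, 569 higher and 419 lower ones kept their call whichever of the 6 libraries was left out.

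The order of the 6 pairs that the 4 populations allow depended on the measure. By calls, the 2 compared populations were not the closest, with 2758 against 1936 (10.9%) for SP Etv2-negative over DP Etv2-negative and 2456 (13.9%) for SP Etv2-positive over DP Etv2-positive cells. By size they were the closest: the root mean square of the fitted log2 differences over all genes was 0.41, against 0.78 for SP Etv2-positive over DP Etv2-negative cells, the pair that differed most. It was 0.59 for DP Etv2-positive over DP Etv2-negative, 0.52 for SP Etv2-positive over SP Etv2-negative, 0.45 for SP Etv2-positive over DP Etv2-positive and 0.43 for SP Etv2-negative over DP Etv2-negative cells. These pairs share libraries, and the distances are given with no test. For 6349 genes (35.9%), the means of both compared populations lay between those of DP Etv2-negative and SP Etv2-positive cells.

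**Figure D1:**
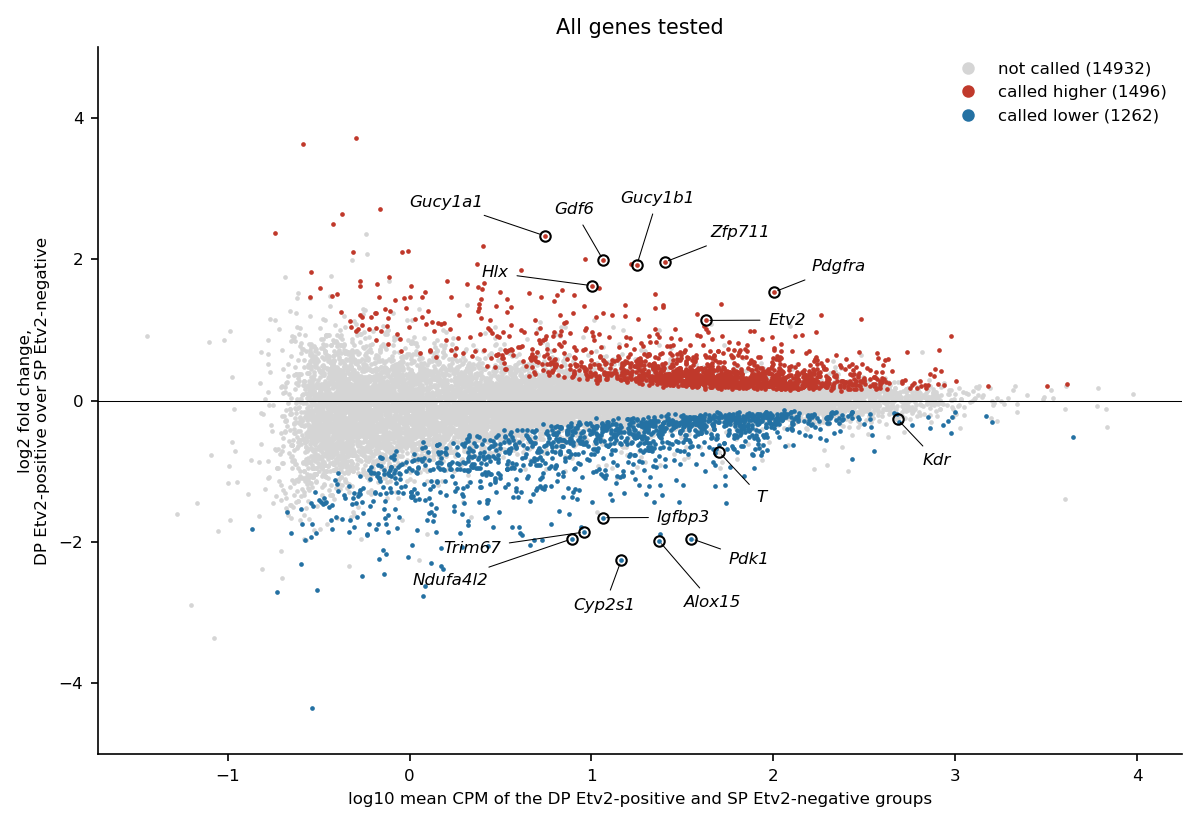
Each point is 1 of 17690 genes, with its mean CPM over the 6 libraries on a log10 axis and its log2 fold change of DP Etv2-positive over SP Etv2-negative cells on the vertical axis; coloured points are called at an adjusted p below 0.05. Among called genes that averaged at least 5 CPM in separate groups, Gucy1a1, Gdf6 and Zfp711 lie among the largest increases. Cyp2s1, Alox15 and Pdk1 lie among the largest decreases by the same rule.

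Etv2 itself was 2.19-fold higher. Of the listed regulators of the blood and vessel lineages that act with or below it, only Elk3 was called. Of 15 tested members of the list of hemangioblast regulators, 2 were higher, Elk3 and Etv2, which is fixed by the gate, and none was lower. This made 13.3% called with Etv2 counted, beside 15.6% of all genes, with a median log2 difference of -0.19 beside -0.00 over all genes. Tal1, the bHLH factor needed for all blood formation, had 12.5, 13.7 and 20.9 CPM in the DP Etv2-positive libraries, against 8.24, 16.9 and 20.4 CPM in the SP Etv2-negative libraries. Replicate 1 was the lowest of the SP Etv2-negative libraries and below all DP Etv2-positive ones, replicates 2 and 3 of both groups overlapped, and the difference was 0.05 ± 0.32 (interval -0.63 to 0.73, edgeR adjusted p = 0.932). Lmo2, its LIM-domain partner, had 13.1, 13.3 and 13.4 CPM in DP Etv2-positive and 7.63, 16.5 and 13.8 CPM in SP Etv2-negative cells, a difference of 0.06 ± 0.22 (interval -0.42 to 0.55, edgeR adjusted p = 0.871). Runx1, needed for definitive blood stem cells to emerge, had 30.6, 36.1 and 25.3 CPM in DP Etv2-positive and 37.7, 35.9 and 28.02 CPM in SP Etv2-negative cells, a difference of -0.14 ± 0.15 (interval -0.47 to 0.18, edgeR adjusted p = 0.534). For Runx1 the interval leaves out a change of 2-fold either way, and for Tal1 and Lmo2 it leaves out any change beyond 0.73 on the log2 scale.

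Sox7, a SoxF factor of early endothelium, had 5.22, 7.08 and 10.9 CPM in DP Etv2-positive and 2.79, 6.17 and 6.44 CPM in SP Etv2-negative cells, with overlap and a difference of 0.59 ± 0.32 (interval -0.10 to 1.29, edgeR adjusted p = 0.224). Gata2, a zinc-finger factor of blood progenitors and endothelium, gave -0.33 ± 0.20 (interval -0.76 to 0.11, edgeR adjusted p = 0.283), and Fli1, another ETS factor of both lineages, -0.03 ± 0.31 (interval -0.69 to 0.63, edgeR adjusted p = 0.961). None of these intervals shows that the populations were alike, since each leaves room for changes of the size given. Elk3, an ETS factor of vessels, was higher by 0.52 ± 0.15 (edgeR adjusted p = 0.032), and its adjusted p was 0.0826 without DP Etv2-positive replicate 2, 0.0837 without replicate 3, 0.131 without SP Etv2-negative replicate 1 and 0.0532 without replicate 3.

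Set beside the other populations, Tal1 averaged 15.7 ± 4.57 CPM in DP Etv2-positive and 15.2 ± 6.27 CPM in SP Etv2-negative cells, with 136 ± 51.5 CPM in SP Etv2-positive and 0.882 ± 0.180 CPM in DP Etv2-negative cells (SD, n = 3 each). With the SP gate and without the reporter, or with the reporter and without the SP gate, Tal1 was thus far above the population with neither and far below the population with both. On the log2 scale Tal1 was higher by 4.14 in DP Etv2-positive over DP Etv2-negative cells and by 4.09 in SP Etv2-negative over DP Etv2-negative cells. SP Etv2-positive cells were higher by 3.16 over SP Etv2-negative and by 3.11 over DP Etv2-positive cells. In that order the same 4 differences were 2.04, 1.98, 2.52 and 2.46 for Lmo2, 4.21, 3.61, 3.33 and 2.74 for Sox7, 0.93, 1.26, 2.05 and 2.38 for Gata2 and 0.91, 1.06, 0.80 and 0.95 for Runx1, all called. In these comparisons, which share libraries, 8 of the 15 regulators were higher and none lower in DP Etv2-positive over DP Etv2-negative cells, where 16% of all genes were higher and 14.7% lower. In SP Etv2-negative over DP Etv2-negative cells 7 were higher and none lower, beside 6.1% and 4.84% of all genes. SP Etv2-positive cells had 13 higher and 1 lower over SP Etv2-negative cells, beside 13.1% and 12.4% of all genes, and 13 higher and none lower over DP Etv2-positive cells, beside 6.95% and 6.94%.

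**Figure D2:**
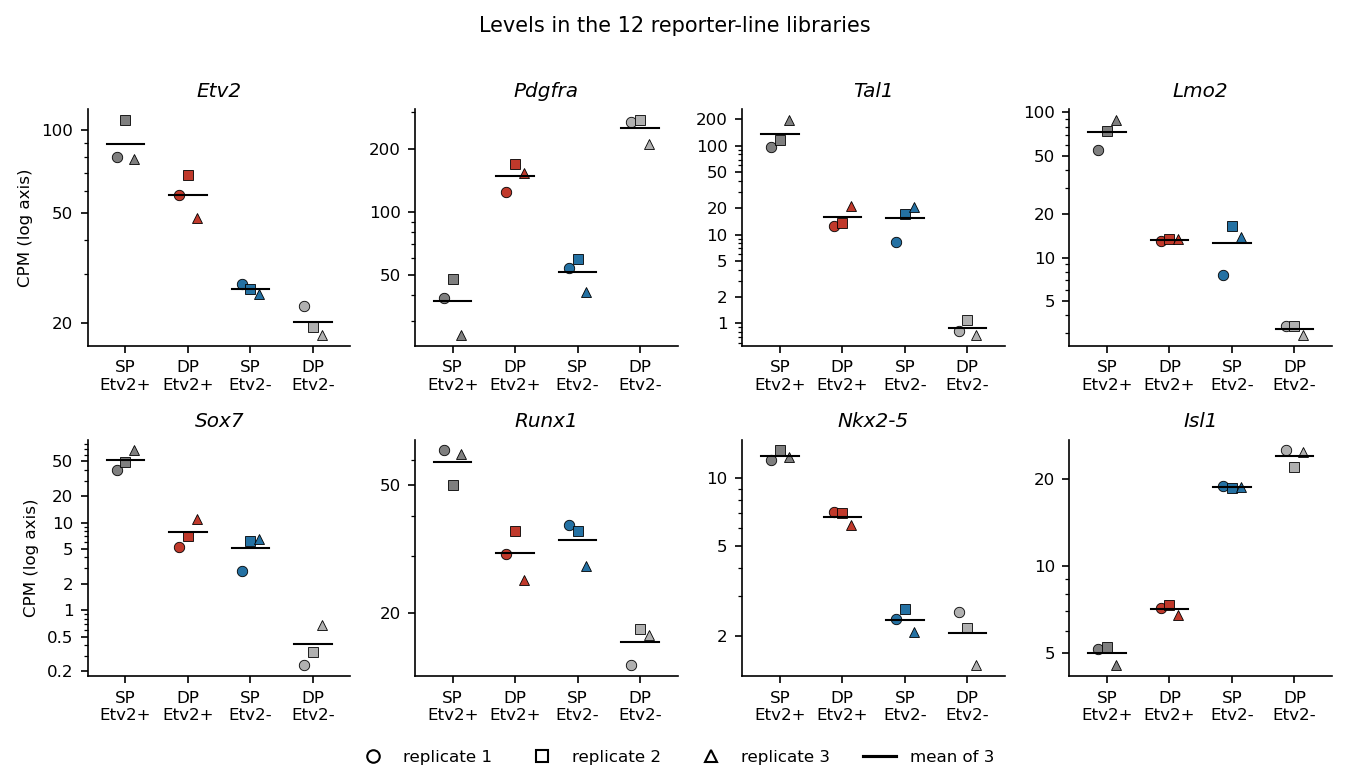
CPM on a log axis of 8 genes in each of 12 libraries, with SP Etv2-positive, DP Etv2-positive, SP Etv2-negative and DP Etv2-negative cells from left to right; points are the 3 replicates and bars their mean. Etv2 and Pdgfra separate the DP Etv2-positive from the SP Etv2-negative libraries, Tal1, Lmo2 and Runx1 overlap between them, and Nkx2-5 and Isl1 separate them in opposite directions.

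Genes of formed vessels were called in both directions. Of 27 tested endothelial genes, 4 were higher and 2 lower (22.2% called, beside 15.6% of all genes), with a median of 0.07. Plvap, which forms the diaphragms of endothelial pores, had 3.71, 3.26 and 4.06 CPM in the DP Etv2-positive libraries, against 1.83, 1.69 and 2.01 CPM in the SP Etv2-negative libraries, a difference of 1.00 ± 0.15 (edgeR adjusted p = 0.00161), and no library of one group reached the other. Ecscr, an endothelial surface regulator, was higher by 0.72 ± 0.16 (edgeR adjusted p = 0.0116), and at 0.0504 lost its call without both libraries of high ribosomal RNA share, SP Etv2-negative replicate 2 and SP Etv2-positive replicate 3. S1pr1, the sphingosine-1-phosphate receptor, was higher by 0.68 and Esam, a junction molecule, lower, at -1.75, with edgeR adjusted p of 0.0254 and 0.0361. Esam rested on few reads, with 6, 3 and 15 counts in the DP Etv2-positive libraries, against 13, 35 and 35 counts in the SP Etv2-negative libraries. S1pr1 lost its call without DP Etv2-positive replicate 1 (0.0758) or 2 (0.0542) or SP Etv2-negative replicate 1 (0.0929) or 2 (0.0795), and Esam lost it without DP Etv2-positive replicate 1 (0.11) or 2 (0.0917) or SP Etv2-negative replicate 2 (0.0989) or 3 (0.107). With SP Etv2-negative replicate 1 left out, 2 endothelial genes were higher, and none was lower when DP Etv2-positive replicate 1, SP Etv2-negative replicate 2 or its replicate 3 was left out. The defining junction and receptor genes Pecam1, Cdh5, Tek and Tie1 were not called, with log2 differences of 1.11 ± 0.43, -1.05 ± 0.44, 0.67 ± 0.47 and -0.91 ± 0.76.

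Blood genes gave 1 call in 18 tested members of 22 listed (5.56%, beside 15.6% of all genes), with a median of -0.23. Lcp1, the actin-bundling L-plastin of blood cells, had 10.5, 11.8 and 10.9 CPM in the DP Etv2-positive libraries, against 8.99, 5.75 and 5.56 CPM in the SP Etv2-negative libraries and was higher by 0.72 ± 0.15 (edgeR adjusted p = 0.0093), with no overlap. Factors that commit cells to blood were not called. When replicate number entered the fit, 5 genes of the blood list were lower, against 0 in the main fit. Gfi1b, a repressor needed for red cells and platelets, had 6, 0 and 7 counts in the DP Etv2-positive libraries, against 8, 19 and 42 counts in the SP Etv2-negative libraries. Gata1, the erythroid and megakaryocytic GATA factor, had 5, 5 and 9 counts in the DP Etv2-positive libraries, against 15, 20 and 41 counts in the SP Etv2-negative libraries. Ikzf1, a lymphoid and erythroid regulator, had 6, 14 and 26 counts in the DP Etv2-positive libraries, against 24, 48 and 102 counts in the SP Etv2-negative libraries. In all 3 genes replicate 3 had the most counts of its group; log2 differences were -2.35 ± 0.91, -1.95 ± 0.67 and -1.89 ± 0.64 with edgeR adjusted p of 0.0956, 0.0648 and 0.0631. For 17 of the 18 genes, both populations averaged between DP Etv2-negative and SP Etv2-positive cells, beside 35.9% of all genes. Of the 4 primitive erythroid genes that could be tested, of 11 listed, none was called in either direction, with a median of -0.68, and the globin Hba-x had no count in the 6 libraries, which allows up to 0.0929 to 0.112 CPM by the level of 3 counts.

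Arterial and venous genes included a ligand and a receptor that were lower. Of 14 tested arterial and Notch genes 14.3% were called, and of 5 tested venous genes 40%, beside 15.6% of all genes. Jag1, a Notch ligand, had 7.68, 12.02 and 8.05 CPM in the DP Etv2-positive libraries, against 20.6, 24.1 and 14.1 CPM in the SP Etv2-negative libraries, a difference of -1.09 ± 0.19 (edgeR adjusted p = 0.00381), and it was the 1 lower member of the 14 tested arterial and Notch genes. Aplnr, the apelin receptor of mesoderm and veins, had 85.9, 88.6 and 89.7 CPM in DP Etv2-positive and 115, 119 and 127 CPM in SP Etv2-negative cells, a difference of -0.45 ± 0.10 (edgeR adjusted p = 0.012). In both genes every DP Etv2-positive library lay below every SP Etv2-negative library. Nrp2, the neuropilin of veins and lymphatics, was lower, at -0.40 and Nrp1, its arterial relative, higher by 0.51, at edgeR adjusted p of 0.0484 and 0.0232. Nrp2 lost its call without DP Etv2-positive replicate 1 (0.171) or 3 (0.115) or SP Etv2-negative replicate 1 (0.129) or 2 (0.163), and Nrp1 without DP Etv2-positive replicate 2 (0.0581) or 3 (0.0808) or SP Etv2-negative replicate 1 (0.0711) or 2 (0.085).

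Cardiac regulators were called in opposite directions. Nkx2-5 (chr17:26838664-26845009), a homeobox factor of heart progenitors, had 7.06, 7.001 and 6.22 CPM in the DP Etv2-positive libraries, against 2.36, 2.63 and 2.08 CPM in the SP Etv2-negative libraries. The lowest DP Etv2-positive library stood above the highest SP Etv2-negative library, and the gene was 2.86-fold higher (log2 1.51 ± 0.16, edgeR adjusted p = 0.000223). Tbx5, a T-box factor of the first heart field and of forelimbs, had 7.901, 11.4 and 8.95 CPM in the DP Etv2-positive libraries, against 4.48, 4.06 and 3.61 CPM in the SP Etv2-negative libraries, a difference of 1.22 ± 0.14 (edgeR adjusted p = 0.000331), also without overlap. Isl1 (chr13:116298281-116309689), a LIM-homeobox factor of the second heart field, had 7.203, 7.38 and 6.78 CPM in the DP Etv2-positive libraries, against 18.9, 18.6 and 18.8 CPM in the SP Etv2-negative libraries. Its 3 values in each group lay close together and far from the other group, and it was 2.64-fold lower (log2 -1.400 ± 0.09, edgeR adjusted p = 7.76e-06). Mesp1, a bHLH factor of early cardiac and cranial mesoderm, had 48.1, 38.5 and 18.6 CPM in DP Etv2-positive and 70.5, 83.2 and 65.8 CPM in SP Etv2-negative cells and was lower, at -1.07 ± 0.26 (edgeR adjusted p = 0.018), a call that was lost at 0.0543 without SP Etv2-negative replicate 2. Gata6, an early cardiac and endodermal GATA factor, was higher by 0.38 ± 0.05 (edgeR adjusted p = 0.00106).

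In all, 3 of the 22 tested cardiac progenitor genes were higher and 2 lower (22.7% called, beside 15.6% of all genes), and the median was -0.03. Gata4, Hand1, Hand2, Tbx20 and Mef2c, other core factors of heart formation, were not called and gave -0.05 ± 0.13, -0.08 ± 0.14, -0.13 ± 0.13, 0.17 ± 0.17 and -1.09 ± 0.41. Beside the other populations, Nkx2-5 averaged 12.6 ± 0.611 CPM in SP Etv2-positive and 2.06 ± 0.540 CPM in DP Etv2-negative cells, and Tbx5 averaged 12.8 ± 0.385 CPM in SP Etv2-positive and 3.08 ± 0.253 CPM in DP Etv2-negative cells (SD, n = 3). Isl1 averaged 5.003 ± 0.391 CPM in SP Etv2-positive and 23.97 ± 1.68 CPM in DP Etv2-negative cells. For these 3 genes the DP Etv2-positive cells were thus on the side of the SP Etv2-positive cells and the SP Etv2-negative cells on the side of the DP Etv2-negative cells.

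Contractile genes of heart and smooth muscle were higher wherever they were called. Of 12 sarcomere genes that could be tested, of 17 listed, 3 were higher and none lower (25% called, beside 15.6% of all genes), with a median of 0.33. Tnnc1, cardiac troponin C, had 24.4, 17.1 and 24.8 CPM in the DP Etv2-positive libraries, against 9.85, 7.76 and 8.35 CPM in the SP Etv2-negative libraries, a difference of 1.35 ± 0.19 (edgeR adjusted p = 0.00106). Tnnt2, cardiac troponin T, had 5.14, 5.95 and 8.95 CPM in DP Etv2-positive and 2.65, 2.92 and 3.58 CPM in SP Etv2-negative cells and differed by 1.13 ± 0.22 (edgeR adjusted p = 0.00618). Myl4, the atrial light chain, gave 0.94 ± 0.20 (edgeR adjusted p = 0.00806). The groups were separate in all 3 genes, and none of the calls was lost when a library was left out. Over the 12 tested sarcomere genes, 7 had the higher mean in DP Etv2-positive cells. The heavy chain Myh6 and the actinin Actn2 were not called, at -0.77 ± 0.37 and -0.52 ± 0.19 (edgeR adjusted p = 0.178 and 0.0833). Other genes of working heart muscle, Myl2, Myh7, Nppa, Nppb and Pln, were too low to be tested.

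Smooth muscle genes were called in 6 of 12 tested members (50%, beside 15.6% of all genes), all higher, with a median of 0.45. All 6 calls were kept whichever library was left out. Of the 12 tested members, 8 had the higher mean in DP Etv2-positive cells, and the lowest difference was -0.78, not called. Cnn2, a calponin, had 248, 218 and 214 CPM in the DP Etv2-positive libraries, against 138, 116 and 92.9 CPM in the SP Etv2-negative libraries, a difference of 0.97 ± 0.16 (edgeR adjusted p = 0.00222). Acta2, smooth muscle actin, had 29.3, 34.5 and 43.1 CPM in DP Etv2-positive and 23.1, 20.1 and 14.8 CPM in SP Etv2-negative cells and differed by 0.88 ± 0.19 (edgeR adjusted p = 0.00999). Myl9, the regulatory light chain of smooth muscle, had 37.7, 30.3 and 27.7 CPM in DP Etv2-positive and 19.2, 12.3 and 7.05 CPM in SP Etv2-negative cells, a difference of 1.31 ± 0.29 (edgeR adjusted p = 0.0114). No library of one group reached the other in these 3 genes. Tagln, transgelin, gave 1.19 ± 0.25 (edgeR adjusted p = 0.00816), but 67.9% of its exon bases overlap genes on the opposite strand and the strand setting of the counting is not given in the sources used here. The list gave 7 higher and none lower in DP Etv2-positive over DP Etv2-negative cells, 3 higher and none lower in SP Etv2-negative over DP Etv2-negative, 6 higher and 1 lower in SP Etv2-positive over SP Etv2-negative, and no call in SP Etv2-positive over DP Etv2-positive cells. Calls over all genes in these pairs were 30.7, 10.9, 25.5 and 13.9%, in that order.

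Paraxial genes are those of the mesoderm that forms somites. Of 14 members that could be tested, of 20 listed, 6 were lower and 1 higher in DP Etv2-positive cells, with a median of -0.85. This made 50% called, beside 15.6% of all genes. Msgn1, the master bHLH factor of presomitic mesoderm, had 0.882, 1.31 and 0.960 CPM in the DP Etv2-positive libraries, against 4.23, 5.98 and 2.897 CPM in the SP Etv2-negative libraries, a difference of -2.06 ± 0.32 (edgeR adjusted p = 0.00153). Dll1, the Notch ligand of the somite clock, had 2.57, 3.41 and 1.61 CPM in the DP Etv2-positive libraries, against 6.95, 8.57 and 4.53 CPM in the SP Etv2-negative libraries, a difference of -1.42 ± 0.26 (edgeR adjusted p = 0.00407). Each SP Etv2-negative library was above each DP Etv2-positive library in both genes. Mesp2, which sets somite borders, gave -1.24 ± 0.23 (edgeR adjusted p = 0.00533), and Aldh1a2, which makes retinoic acid in somites, had 4.08, 5.62 and 3.69 CPM in DP Etv2-positive and 9.03, 10.7 and 11.6 CPM in SP Etv2-negative cells and gave -1.23 ± 0.21 (edgeR adjusted p = 0.00327). Meox1, a homeobox factor of the somite itself, was the exception, with 3.56, 3.78 and 3.499 CPM in the DP Etv2-positive libraries, against 1.29, 1.36 and 1.33 CPM in the SP Etv2-negative libraries and a difference of 1.44 ± 0.16 (edgeR adjusted p = 0.000326).

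Means in DP Etv2-negative cells were 6.35 ± 0.435 CPM for Msgn1, 32.3 ± 3.76 CPM for Dll1 and 33.5 ± 8.63 CPM for Aldh1a2 (SD, n = 3). There were 12 lower and 1 higher members in DP Etv2-positive over DP Etv2-negative cells, 10 lower and none higher in SP Etv2-negative over DP Etv2-negative, 9 lower and 2 higher in SP Etv2-positive over SP Etv2-negative, and 7 lower and 1 higher in SP Etv2-positive over DP Etv2-positive cells. Of all genes, 30.7, 10.9, 25.5 and 13.9% were called in these pairs, in that order. Dll1 averaged 2.53 ± 0.899 CPM in DP Etv2-positive, 6.69 ± 2.03 CPM in SP Etv2-negative, 0.716 ± 0.169 CPM in SP Etv2-positive and 32.3 ± 3.76 CPM in DP Etv2-negative cells.

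Genes of the primitive streak and of undifferentiated cells were lower in a part of their members. Of 24 tested streak genes 5 were lower and none higher (20.8% called, beside 15.6% of all genes), with a median of -0.56. There were 3 lower without DP Etv2-positive replicate 3, 3 without SP Etv2-negative replicate 1 and 2 without SP Etv2-negative replicate 2. The count was 2 to 7 over all 6 leave-one-out fits, and 14 when replicate number entered the fit. Cdx4, a caudal factor of posterior mesoderm, had 1.91, 2.13 and 1.86 CPM in the DP Etv2-positive libraries, against 8.28, 8.44 and 6.48 CPM in the SP Etv2-negative libraries, a difference of -1.97 ± 0.23 (edgeR adjusted p = 0.000352), beside 3.53 ± 1.39 CPM in DP Etv2-negative cells. Cer1, a secreted antagonist of Nodal and BMP from anterior endoderm and mesoderm, had 0.808, 0.599 and 0.805 CPM in the DP Etv2-positive libraries, against 6.02, 2.05 and 1.397 CPM in the SP Etv2-negative libraries, a difference of -2.08 ± 0.47 (edgeR adjusted p = 0.0127), in which SP Etv2-negative replicate 1 was well above its 2 fellows. Eomes and Mixl1, a T-box and a homeobox factor of the streak, were not called, at 0.14 ± 0.35 and 0.13 ± 0.39.

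Of 20 tested pluripotency genes 6 were lower and none higher (30% called, beside 15.6% of all genes), with a median of -0.35. There were 3 lower without DP Etv2-positive replicate 3 and 3 without SP Etv2-negative replicate 1. The count was 3 to 7 over all 6 leave-one-out fits, and 9 when replicate number entered the fit. Nanog, a homeobox factor of the stem cell state that is on again in the streak, had 8.27, 7.34 and 6.01 CPM in the DP Etv2-positive libraries, against 21.1, 21.01 and 11.9 CPM in the SP Etv2-negative libraries, a difference of -1.32 ± 0.26 (edgeR adjusted p = 0.00605). Prdm14, a regulator of the naive stem cell state and the germ line, gave -1.66 ± 0.29 (edgeR adjusted p = 0.00333) and Fgf4, a stem cell growth factor, -1.14 ± 0.22 (edgeR adjusted p = 0.00592). The groups were separate in these 3 genes, and their calls were kept whichever library was left out.

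The epithelial adhesion genes Cdh1 and Epcam, listed with endoderm, were lower too. Cdh1, E-cadherin, had 10.3, 14.9 and 16.5 CPM in the DP Etv2-positive libraries, against 50.01, 31.1 and 24.5 CPM in the SP Etv2-negative libraries, a difference of -1.34 ± 0.23 (edgeR adjusted p = 0.00333). Epcam, an epithelial adhesion molecule also present on stem cells, had 8.53, 8.12 and 7.31 CPM in DP Etv2-positive and 15.5, 17.1 and 14.9 CPM in SP Etv2-negative cells, a difference of -0.99 ± 0.12 (edgeR adjusted p = 0.00039). In both genes all SP Etv2-negative libraries were above all DP Etv2-positive ones. In the endoderm list 3 of 16 tested genes were lower, Cdh1, Epcam and Cer1, and 2 higher, Gata6 and Krt8. This makes 5 called in all (31.25%, beside 15.6% of all genes). Krt8, a simple-epithelial keratin, lost its call in 5 of the 6 leave-one-out fits (adjusted p of 0.107 without DP Etv2-positive replicate 1 and 0.109 without replicate 3, and 0.102, 0.108 and 0.0925 without SP Etv2-negative replicates 1, 2 and 3) and with upper-quartile scaling (0.0505). Across the markers set for each cell type, summed levels were 25.7 to 32.5 CPM in DP Etv2-positive and 48.0 to 77.0 CPM in SP Etv2-negative libraries for 6 endoderm markers, and 36.7 to 40.8 CPM in DP Etv2-positive and 53.5 to 62.0 CPM in SP Etv2-negative libraries for 6 stem cell markers. The part of such cells in the lower genes was not tested.

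Some mesenchymal, matrix and lateral plate genes were higher. Gdf6 (chr4:9844372-9862345), a BMP-type ligand, had 17.3, 16.8 and 21.3 CPM in the DP Etv2-positive libraries, against 6.63, 3.22 and 4.23 CPM in the SP Etv2-negative libraries. It was 3.96-fold higher (log2 1.99 ± 0.28, edgeR adjusted p = 0.00107), no library of one group reached the other, and the 8.19 ± 2.71 CPM of SP Etv2-positive and 2.34 ± 0.880 CPM of DP Etv2-negative cells were below the DP Etv2-positive level. Twist1, a bHLH factor of mesenchyme that was chosen after its value was seen, had 23.3, 24.2 and 24.3 CPM in the DP Etv2-positive libraries, against 13.9, 14.2 and 12.9 CPM in the SP Etv2-negative libraries, a difference of 0.81 ± 0.09 (edgeR adjusted p = 0.000349). Col5a2, a fibrillar collagen chain, had 10.9, 11.6 and 17.2 CPM in DP Etv2-positive and 6.52, 6.56 and 7.23 CPM in SP Etv2-negative cells, a difference of 0.97 ± 0.18 (edgeR adjusted p = 0.00426). The groups were separate in both.

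Postn, periostin, rested on few reads, with 19, 24 and 64 counts in the DP Etv2-positive libraries, against 2, 3 and 11 counts in the SP Etv2-negative libraries. Its ratio of summed counts per library total was 6.72, with an exact 95% interval of 3.95 to 12.2 that covers counting error only, and its edgeR adjusted p was 0.00945. Col1a1, collagen I, had 354, 382 and 525 CPM in the DP Etv2-positive libraries, against 223, 169 and 175 CPM in the SP Etv2-negative libraries, a difference of 1.15 ± 0.33 (edgeR adjusted p = 0.0344). Its call was lost in 5 of 6 leave-one-out fits, at 0.0514 without DP Etv2-positive replicate 1, 0.0954 without its replicate 3, and 0.0715, 0.0961 and 0.0957 without SP Etv2-negative replicates 1, 2 and 3. In the mesenchyme and matrix list 7 of 21 tested genes were higher and 1 lower, Fn1, fibronectin, with a median of 0.40. In all, 38.1% were called, beside 15.6% of all genes. The call of Fn1 (-0.51, edgeR adjusted p = 0.0201) was lost at 0.0743 and 0.0626 without DP Etv2-positive replicates 1 and 3 and at 0.0794 and 0.058 without SP Etv2-negative replicates 1 and 2.

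The summed level of 5 markers of feeder fibroblasts was 369 to 552 CPM in DP Etv2-positive and 186 to 238 CPM in SP Etv2-negative libraries, nearly all of it the Col1a1 given above. Thy1, another of these markers, was also higher, by 1.14 (edgeR adjusted p = 0.0217). Its call was lost at 0.0818 without DP Etv2-positive replicate 3 and at 0.091 and 0.0705 without SP Etv2-negative replicates 1 and 2. Col1a2, the other collagen I chain, was not called at 0.22 ± 0.24 (edgeR adjusted p = 0.559). The fibroblast proteoglycans Dcn and Lum reached at most 0.0619 and 0.0749 CPM in any of the 6 libraries, below the level of 3 counts.

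Of 17 lateral plate and extraembryonic mesoderm genes, 4 were higher and none lower (23.5% called, beside 15.6% of all genes), with a median of 0.04. Gdf6 and Postn kept their calls whichever library was left out; with DP Etv2-positive replicate 3 or SP Etv2-negative replicate 2 left out, 2 members were higher. Tdo2, tryptophan dioxygenase, had 10.4, 7.86 and 17.1 CPM in DP Etv2-positive and 4.299, 2.37 and 5.93 CPM in SP Etv2-negative cells, a difference of 1.49 ± 0.41 (edgeR adjusted p = 0.0279), lost at 0.0955 without DP Etv2-positive replicate 3 and at 0.0875 and 0.0906 without SP Etv2-negative replicates 1 and 2. The other member was Hoxb6.

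HoxB genes were called in both directions. Hox genes are arranged on the chromosome in the order in which they act along the body, the anterior ones at the 3' end. Of 35 Hox genes 19 could be tested, 5 were higher and 3 lower (42.1% called, beside 15.6% of all genes), with a median of 0.34. The higher genes were all of HoxB, but the lower ones included Hoxa13, from the posterior end of the order, and Hoxd1. They gave -0.81 and -0.76 (edgeR adjusted p = 0.0306 and 0.04), and each lost its call in 5 of the 6 leave-one-out fits. Hoxb1 (chr11:96365752-96368256), the most anterior of the cluster, had 10.3, 10.4 and 8.24 CPM in the DP Etv2-positive libraries, against 21.4, 19.6 and 19.1 CPM in the SP Etv2-negative libraries, a difference of -1.06 ± 0.11 (edgeR adjusted p = 0.000162), and all 3 DP Etv2-positive libraries were below all SP Etv2-negative ones. Hoxb6 (chr11:96292476-96301569) had 12.5, 8.798 and 23.1 CPM in the DP Etv2-positive libraries, against 4.37, 2.89 and 3.89 CPM in the SP Etv2-negative libraries, a difference of 2.004 ± 0.47 (edgeR adjusted p = 0.0147). Hoxb8 (chr11:96281905-96285315) had 3.97, 2.32 and 6.13 CPM in DP Etv2-positive and 0.931, 0.747 and 1.06 CPM in SP Etv2-negative cells, a difference of 2.19 ± 0.49 (edgeR adjusted p = 0.0114). In both, replicate 3 was the highest DP Etv2-positive library and the groups were separate.

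Between them in the cluster, Hoxb2, Hoxb3 and Hoxb4 gave 0.36 ± 0.19, 0.20 ± 0.18 and 0.88 ± 0.35 and were not called, and Hoxb5 and Hoxb7 were higher by 1.57 ± 0.48 and 1.46 ± 0.43 (edgeR adjusted p = 0.043 and 0.0382). In Hoxb2 27.3% and in Hoxb3 52.9% of exon bases overlap a gene on the opposite strand. With the strand setting not given, their values may include reads of that gene. Hoxb9 was higher by 1.24 ± 0.39 (edgeR adjusted p = 0.0478), a call that was not kept in all 6 leave-one-out fits. Hoxb6 lost its call without DP Etv2-positive replicate 3 (0.0536) or SP Etv2-negative replicate 2 (0.0545). Hoxb5 lost it without DP Etv2-positive replicate 1 (0.0696) or 3 (0.144) or SP Etv2-negative replicate 1 (0.136), 2 (0.128) or 3 (0.0506), and Hoxb7 without DP Etv2-positive replicate 3 (0.174) or SP Etv2-negative replicate 1 (0.0996), 2 (0.103) or 3 (0.0903). The number of higher Hox genes, 5, was thus 3 and 1 without DP Etv2-positive replicates 1 and 3, and 2, 1 and 2 without SP Etv2-negative replicates 1, 2 and 3. The number of lower ones, 3, was 1 without DP Etv2-positive replicate 1 or 3 or SP Etv2-negative replicate 1 or 3, and 2 without the replicate 2 of either group. Hoxb1 and Hoxb8 kept their calls in all 6 fits. Hoxb1 averaged 8.68 ± 0.322 CPM in SP Etv2-positive and 33.1 ± 3.59 CPM in DP Etv2-negative cells, and Hoxb8 averaged 3.42 ± 1.901 CPM in SP Etv2-positive and 0.909 ± 0.646 CPM in DP Etv2-negative cells.

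**Figure D3:**
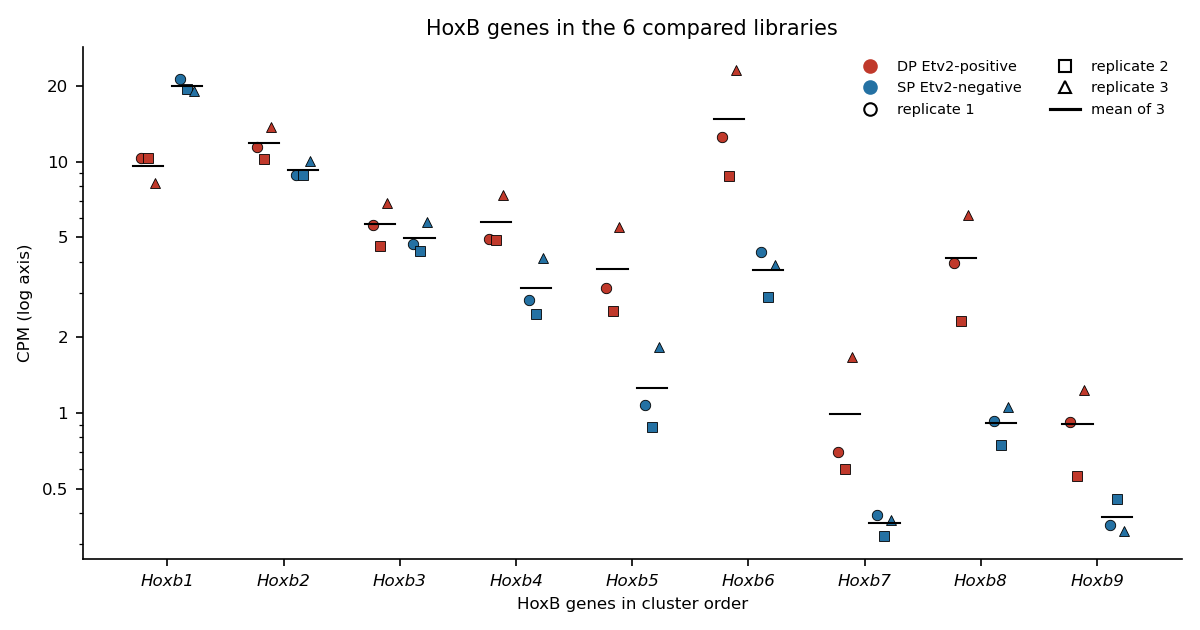
CPM of the HoxB genes, in their order from Hoxb1 to Hoxb9, in each of the DP Etv2-positive and SP Etv2-negative libraries, on a log axis. Hoxb1 is lower in all 3 DP Etv2-positive libraries, and Hoxb6 and Hoxb8 are higher in all 3, with replicate 3 the highest.

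Among called genes that averaged at least 5 CPM in separate groups, the largest increases included neighbours on chromosome 3. Gucy1a1 (chr3:82092427-82145789), the alpha subunit of the soluble guanylate cyclase that answers nitric oxide, had 6.58, 6.93 and 14.3 CPM in the DP Etv2-positive libraries, against 1.65, 1.202 and 2.73 CPM in the SP Etv2-negative libraries. Gucy1b1 (chr3:82032006-82074689), its beta subunit, had 21.5, 22.7 and 39.8 CPM in the DP Etv2-positive libraries, against 6.88, 4.94 and 10.6 CPM in the SP Etv2-negative libraries. Both were separate between the groups and highest in replicate 3 of each, with differences of 2.33 ± 0.50 and 1.91 ± 0.38 (edgeR adjusted p = 0.0094 and 0.00648). Tdo2 (chr3:81957090-81976202) lies next to them, so that 3 of the 12 largest increases fall within 188700 bases. The tested genes on either side, Ctso (0.35 ± 0.26, edgeR adjusted p = 0.375) and Map9 (-0.04 ± 0.12, edgeR adjusted p = 0.835), chosen for their position, were not called. No other pair among the 24 genes of largest change lay within 200000 bases.

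The mean of Gucy1b1 was the highest of the 4 populations in DP Etv2-positive cells. Gucy1b1 averaged 28.00 ± 10.3 CPM in them, 10.3 ± 0.891 CPM in SP Etv2-positive, 7.46 ± 2.86 CPM in SP Etv2-negative and 3.995 ± 2.92 CPM in DP Etv2-negative cells (SD, n = 3 each). SP Etv2-positive over DP Etv2-positive cells differed by -1.44 for Gucy1b1 and -1.43 for Tdo2, both called, and by -1.29 for Gucy1a1, not called. Gdf6 (-1.18), Tmem108 (-0.93), Hlx (-0.64) and Itga4 (-1.399) were likewise lower in SP Etv2-positive than in DP Etv2-positive cells. All these genes were picked for high values in the same DP Etv2-positive libraries, which favours differences in this direction.

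Hlx (chr1:184727140-184732619), a homeobox factor of visceral mesenchyme and blood, had 14.9, 13.7 and 17.03 CPM in the DP Etv2-positive libraries, against 4.66, 4.25 and 5.896 CPM in the SP Etv2-negative libraries, a difference of 1.62 ± 0.15 (edgeR adjusted p = 0.000116). Zfp711, a zinc-finger factor of the X chromosome, had 30.7, 29.7 and 59.8 CPM in the DP Etv2-positive libraries, against 8.02, 9.26 and 13.7 CPM in the SP Etv2-negative libraries, a difference of 1.96 ± 0.34 (edgeR adjusted p = 0.00327), and Hspa12a, a distant relative of the heat shock proteins, gave 1.501 ± 0.14 (edgeR adjusted p = 0.000116). In all 3 the groups did not overlap. Tmem108, a transmembrane protein, and Cdh8, a classical cadherin, were higher by 1.94 ± 0.29 and 1.595 ± 0.27. Itga4, the alpha chain of the VCAM1 and fibronectin receptor, was higher by 1.495 ± 0.40 (edgeR adjusted p = 0.0258), and lost its call without DP Etv2-positive replicate 3 (0.0934) or SP Etv2-negative replicate 1 (0.0674), 2 (0.0781) or 3 (0.0733).

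Among the largest decreases by the same rule, Cyp2s1, a cytochrome P450, had 5.402, 4.31 and 5.39 CPM in the DP Etv2-positive libraries, against 21.6, 22.2 and 28.5 CPM in the SP Etv2-negative libraries, a difference of -2.26 ± 0.26 (edgeR adjusted p = 0.000352). Alox15, a lipoxygenase that oxidises arachidonic and linoleic acid, had 10.1, 10.6 and 7.87 CPM in the DP Etv2-positive libraries, against 40.3, 43.7 and 28.2 CPM in the SP Etv2-negative libraries, a difference of -1.98 ± 0.17 (edgeR adjusted p = 8.59e-05). Every SP Etv2-negative library was above every DP Etv2-positive one in both. Igfbp3, which binds insulin-like growth factors, had 4.81, 6.29 and 5.51 CPM in DP Etv2-positive and 20.4, 19.3 and 12.7 CPM in SP Etv2-negative cells, a difference of -1.66 ± 0.19 (edgeR adjusted p = 0.000331). Trim67, a ubiquitin ligase family member, Cpxm2 and Cpm, of the carboxypeptidase family, and Rgs11, a regulator of G-protein signalling, gave -1.86 ± 0.27, -1.78 ± 0.16, -1.602 ± 0.33 and -1.75 ± 0.46. Rgs11 lost its call at 0.0861 and 0.0619 without DP Etv2-positive replicates 1 and 2 and at 0.0525 and 0.0949 without SP Etv2-negative replicates 1 and 3. Sprr2a1, a small proline-rich protein, gave -1.56 ± 0.25, but 3.72% of the 50-base windows of its transcript are found in no other gene, so its reads cannot be told from those of its near copy.

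Signalling genes differed by pathway. In VEGF and PDGF signalling 6 of 16 tested genes were higher, 1 of them Pdgfra, which is fixed by the sort, and 1, Nrp2, was lower. This made 43.75% called, beside 15.6% of all genes, with a median of -0.06. Vegfc, the ligand of the lymphatic VEGF receptor, had 32.9, 35.3 and 34.7 CPM in the DP Etv2-positive libraries, against 16.5, 20.9 and 22.5 CPM in the SP Etv2-negative libraries, a difference of 0.78 ± 0.15 (edgeR adjusted p = 0.00507). Pdgfrb, the receptor of pericytes and smooth muscle, had 80.2, 87.9 and 104 CPM in the DP Etv2-positive libraries, against 59.5, 49.3 and 50.00 CPM in the SP Etv2-negative libraries, a difference of 0.78 ± 0.14 (edgeR adjusted p = 0.0041). In both, all DP Etv2-positive libraries were above all SP Etv2-negative ones. Pdgfc, a ligand of PDGFRalpha, was higher by 1.02 ± 0.27 (edgeR adjusted p = 0.0243), a call lost at 0.0884 without DP Etv2-positive replicate 3 and at 0.0889 and 0.072 without SP Etv2-negative replicates 1 and 2. Vegfa, the main ligand of FLK1, gave 0.03 ± 0.23 and was not called (interval -0.47 to 0.52).

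In BMP signalling 3 of 22 tested genes were higher and 2 lower (22.7% called, beside 15.6% of all genes), with a median of -0.10. Beside Gdf6, Id3, a direct BMP target, had 219.8, 187 and 216 CPM in the DP Etv2-positive libraries, against 125, 145 and 149 CPM in the SP Etv2-negative libraries, a difference of 0.57 ± 0.10 (edgeR adjusted p = 0.0027). The inhibitory Smad6, also a BMP target and chosen after its value was seen, gave 0.52 ± 0.08 (edgeR adjusted p = 0.00116). Nog, the extracellular BMP antagonist noggin, had 3.31, 4.04 and 3.47 CPM in the DP Etv2-positive libraries, against 6.198, 6.88 and 6.07 CPM in the SP Etv2-negative libraries, a difference of -0.83 ± 0.16 (edgeR adjusted p = 0.00676). The other 17 tested members were not called, among them the BMP targets Id1 and Id2, at -0.18 ± 0.12 and -0.12 ± 0.25, and Bmp4, the ligand of posterior mesoderm, at -0.32 ± 0.16 (edgeR adjusted p = 0.198). Bmper, another extracellular modulator, was lower, at -0.57 (edgeR adjusted p = 0.0313), and lost its call at 0.0949 and 0.0936 without DP Etv2-positive replicates 1 and 3 and at 0.116 without SP Etv2-negative replicate 2.

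Retinoic acid genes were called in both directions, synthesising enzymes included. Aldh1a1 had 28, 25 and 28 counts in the DP Etv2-positive libraries, against 2 counts in each of the 3 SP Etv2-negative libraries. The ratio per library total was 13.6, with an exact 95% interval of 5.97 to 38.03 for counting error, and the edgeR adjusted p was 0.000192. Aldh1a2, at higher counts, was lower, as given above with the paraxial genes. Crabp1, which binds retinoic acid, gave -0.60 ± 0.13 (edgeR adjusted p = 0.00885). In all, 1 of 16 tested genes was higher and 3 were lower (25% called, beside 15.6% of all genes), with a median of -0.31. All 4 calls were kept whichever library was left out.

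Wnt and Nodal genes were called at about the share of all genes, 14.8% and 16.7% beside 15.6%. Of 27 tested Wnt genes 1 was higher and 3 lower, the higher call being lost without DP Etv2-positive replicate 3 or SP Etv2-negative replicate 1 or 2, and of 12 Nodal genes 2 were lower and none higher. Sfrp1, a secreted Wnt antagonist, had 4.37, 7.45 and 5.39 CPM in the DP Etv2-positive libraries, against 11.03, 12.9 and 12.4 CPM in the SP Etv2-negative libraries, a difference of -1.08 ± 0.18 (edgeR adjusted p = 0.00287), and Rnf43, a ligase that removes Wnt receptors, gave -1.14 ± 0.22 (edgeR adjusted p = 0.00541). Acvr2b, a receptor of Nodal and activin, was lower, at -0.60 ± 0.13 (edgeR adjusted p = 0.00899). Of 20 FGF genes 2 were lower and none higher (10% called), Fgf4 and the inhibitor Spred2 (-0.31 ± 0.07, edgeR adjusted p = 0.0103). The call of Spred2 was lost at 0.0579 without SP Etv2-negative replicate 1.

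Among integrins and laminins 3 of 21 tested genes were higher and 1 lower (19.0% called, beside 15.6% of all genes). Only 1 was higher without DP Etv2-positive replicate 3, SP Etv2-negative replicate 1 or its replicate 3. Itga8, an integrin chain of mesenchyme, had 10.1, 16.4 and 9.23 CPM in the DP Etv2-positive libraries, against 33.1, 32.8 and 30.2 CPM in the SP Etv2-negative libraries, a difference of -1.43 ± 0.20 (edgeR adjusted p = 0.000855), with no overlap and with 4.51 ± 1.297 CPM in SP Etv2-positive and 65.6 ± 7.85 CPM in DP Etv2-negative cells. Of 28 genes of axon guidance and repulsion, 2 were higher and 7 lower (32.1% called), but no lower call was kept in all 6 leave-one-out fits. There were 0 lower without DP Etv2-positive replicate 1, 4 without replicate 3, and 1, 3 and 3 without SP Etv2-negative replicates 1, 2 and 3. Sema3f, a secreted semaphorin that repels vessels and axons, was higher by 0.63 ± 0.10 (edgeR adjusted p = 0.00215) and kept its call; 4 were higher without DP Etv2-positive replicate 1 and 1 without SP Etv2-negative replicate 2.

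Genes of glycolysis and the response to low oxygen were lower wherever they were called. When oxygen is short, hypoxia-inducible factors accumulate and bind short motifs with the core ACGTG or GCGTG before genes of glucose use, mitochondrial turnover and oxygen sensing. Of 25 tested list members 9 were lower and none higher (36%, beside 7.13% of all genes lower), with a median of -0.44. The members with the largest changes are Pdk1, the kinase that keeps pyruvate out of mitochondria, Bnip3, a mitophagy receptor, Pfkfb3, which makes the activator of phosphofructokinase, and Egln3, an oxygen-sensing prolyl hydroxylase. The 250 bases before their starts, from RefSeq on GRCm38.p6, are shown for the motifs they hold, with ACGTG and GCGTG, or CACGT and CACGC where the motif is on the other strand, in capitals.
Bnip3 (chr7:138909507-138909756, minus strand): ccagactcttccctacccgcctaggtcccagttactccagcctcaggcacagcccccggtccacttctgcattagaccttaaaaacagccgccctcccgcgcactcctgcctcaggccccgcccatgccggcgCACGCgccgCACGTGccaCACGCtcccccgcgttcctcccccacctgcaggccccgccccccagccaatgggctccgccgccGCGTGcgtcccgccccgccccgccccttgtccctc
Pdk1 (chr2:71872974-71873223, plus strand): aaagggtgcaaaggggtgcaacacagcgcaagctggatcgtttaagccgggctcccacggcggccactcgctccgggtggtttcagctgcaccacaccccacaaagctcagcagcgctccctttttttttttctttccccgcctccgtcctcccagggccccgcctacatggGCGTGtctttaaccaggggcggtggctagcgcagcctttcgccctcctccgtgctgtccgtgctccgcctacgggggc
Pfkfb3 (chr2:11553930-11554179, minus strand): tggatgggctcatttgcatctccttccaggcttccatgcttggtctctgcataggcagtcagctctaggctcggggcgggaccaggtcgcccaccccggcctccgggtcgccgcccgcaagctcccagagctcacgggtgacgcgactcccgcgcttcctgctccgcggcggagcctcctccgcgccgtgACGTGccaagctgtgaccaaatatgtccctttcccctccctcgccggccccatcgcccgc
Egln3 (chr12:54203875-54204124, minus strand): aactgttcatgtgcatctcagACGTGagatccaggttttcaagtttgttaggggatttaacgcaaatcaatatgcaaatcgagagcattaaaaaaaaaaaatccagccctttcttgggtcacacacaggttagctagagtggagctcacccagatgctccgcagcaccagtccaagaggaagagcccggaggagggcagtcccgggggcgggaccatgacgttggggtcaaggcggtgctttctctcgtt
Bnip3 has 5 matches, of which CACGT and ACGTG overlap in CACGTG, and each of the others has 1. A match is a description of the letters only. Of the 9 lower members 8 had a match (88.89%), all but Aldoa, and 10 of the 15 members with a promoter entry that were not called had one (66.67%), beside 10442 of 27025 promoters of the same length (38.64%).

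Pdk1 had 10.95, 9.47 and 22.8 CPM in the DP Etv2-positive libraries, against 51.5, 33.6 and 83.5 CPM in the SP Etv2-negative libraries. All SP Etv2-negative libraries were above all DP Etv2-positive ones, replicate 3 was the highest in both groups, and the difference was -1.95 ± 0.46 (edgeR adjusted p = 0.0149). Pfkfb3 had 14.5, 15.4 and 18.9 CPM in the DP Etv2-positive libraries, against 42.5, 30.6 and 59.4 CPM in the SP Etv2-negative libraries, a difference of -1.44 ± 0.23 (edgeR adjusted p = 0.00213). Egln3 had 29.8, 25.1 and 31.3 CPM in the DP Etv2-positive libraries, against 60.2, 47.9 and 91.4 CPM in the SP Etv2-negative libraries, a difference of -1.21 ± 0.22 (edgeR adjusted p = 0.00431). Replicate 3 was again the highest and replicate 2 of the SP Etv2-negative cells the lowest of its group, without any overlap. Bnip3 had 7.24, 4.98 and 17.8 CPM in DP Etv2-positive and 31.7, 20.9 and 59.8 CPM in SP Etv2-negative cells, a difference of -1.89 ± 0.57 (edgeR adjusted p = 0.0411), though 36.8% of the windows of its transcript are found in no other gene. Hk2, the first enzyme of glycolysis and chosen after its value was seen, had 142, 165 and 166 CPM in DP Etv2-positive and 231, 195 and 268 CPM in SP Etv2-negative cells, a difference of -0.55 ± 0.11 (edgeR adjusted p = 0.0077). The glucose transporter Slc2a1 and the enzymes Ldha and Gapdh were not called, at 0.27 ± 0.27, -0.39 ± 0.14 and -0.05 ± 0.09.

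A pair of genes outside the list that are also known to respond to low oxygen stood among the 12 largest decreases of called genes at 5 CPM or more. Ndufa4l2, which replaces a subunit of cytochrome oxidase, had 3.42, 2.36 and 3.78 CPM in the DP Etv2-positive libraries, against 10.8, 6.82 and 19.7 CPM in the SP Etv2-negative libraries, a difference of -1.96 ± 0.38 (edgeR adjusted p = 0.00593). Ddit4, an inhibitor of mTORC1, had 23.6, 22.99 and 41.5 CPM in the DP Etv2-positive libraries, against 62.8, 49.5 and 129.5 CPM in the SP Etv2-negative libraries, a difference of -1.45 ± 0.42 (edgeR adjusted p = 0.0347). In both, the groups were separate and replicate 3 was the highest of each.

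In the other populations Pdk1 averaged 19.8 ± 12.5 CPM in SP Etv2-positive and 52.98 ± 20.02 CPM in DP Etv2-negative cells, Pfkfb3 averaged 18.5 ± 2.47 CPM in SP Etv2-positive and 44.1 ± 12.3 CPM in DP Etv2-negative cells, and Egln3 averaged 34.1 ± 6.21 CPM in SP Etv2-positive and 67.9 ± 15.7 CPM in DP Etv2-negative cells (SD, n = 3 each). The list gave 11 lower and 1 higher members in DP Etv2-positive over DP Etv2-negative cells and 15 lower and none higher in SP Etv2-positive over SP Etv2-negative cells. Of all genes, 14.7% and 12.4% were lower in these pairs. Between populations of the same reporter state the list gave no call in SP Etv2-negative over DP Etv2-negative cells, where 10.9% of all genes were called. It gave 2 higher and none lower in SP Etv2-positive over DP Etv2-positive cells, where 13.9% of all genes were called. These comparisons share libraries with each other and with the one above.

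The count of lower members rested on the libraries used. It was 3 and 4 without DP Etv2-positive replicates 1 and 2, and 4 and 3 without SP Etv2-negative replicates 1 and 3, but 13 without SP Etv2-negative replicate 2 and 13 without both libraries of high ribosomal RNA share, against 9 in all libraries, while Pfkfb3, Egln3 and Hk2 were kept in all 6 fits. Pdk1 lost its call at 0.0601 without DP Etv2-positive replicate 1 and at 0.0585 without SP Etv2-negative replicate 3. Bnip3 lost it at 0.132, 0.109, 0.0825 and 0.151, and Ddit4 at 0.117, 0.0907, 0.0595 and 0.148, without DP Etv2-positive replicates 1 and 2 and SP Etv2-negative replicates 1 and 3, in that order.

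**Figure D4:**
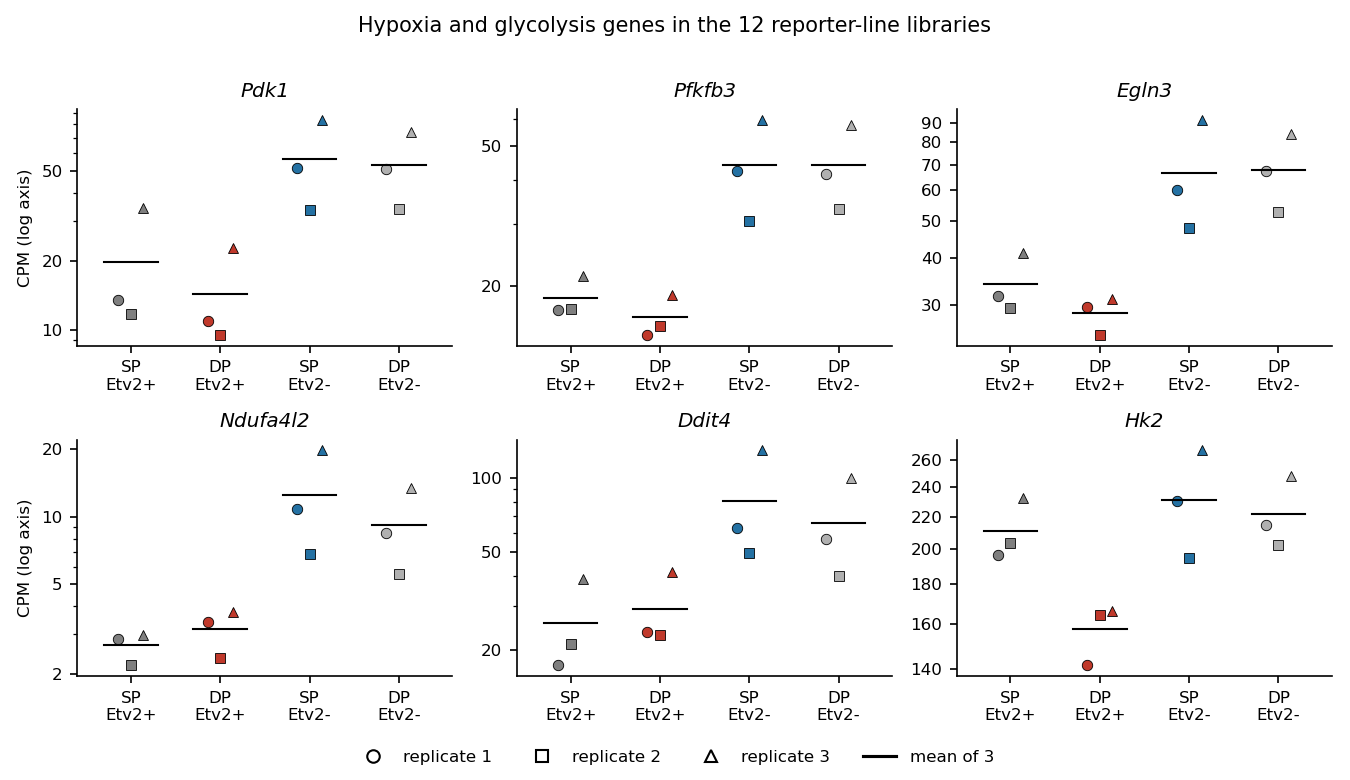
CPM on a log axis of 6 genes that respond to low oxygen in each of 12 libraries, with SP Etv2-positive, DP Etv2-positive, SP Etv2-negative and DP Etv2-negative cells from left to right; points are replicates and bars the mean of 3. The mean of each gene is lower in both reporter-positive than in both reporter-negative populations, while single libraries of Pdk1, Ddit4 and Hk2 cross.

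Several genes of the G2 phase and mitosis were higher by small steps. Of 26 tested cell cycle genes 10 were higher and 2 lower (46.2% called, beside 15.6% of all genes), with a median of 0.09. Cdk1, the kinase of mitotic entry, had 228, 189.6 and 205 CPM in the DP Etv2-positive libraries, against 135, 137 and 133 CPM in the SP Etv2-negative libraries, a difference of 0.62 ± 0.06 (edgeR adjusted p = 0.000199). Aurka, a kinase of the mitotic spindle, had 119.9, 119.8 and 110.1 CPM in the DP Etv2-positive libraries, against 81.9, 81.6 and 80.7 CPM in the SP Etv2-negative libraries, a difference of 0.52 ± 0.05 (edgeR adjusted p = 0.000141). Ccnb1, cyclin B1, had 164, 157 and 141 CPM in DP Etv2-positive and 112, 112 and 108 CPM in SP Etv2-negative cells and gave 0.48 ± 0.06 (edgeR adjusted p = 0.000785), with 57.8% of its windows in no other gene. The groups were separate in all 3. The 6 calls kept whichever library was left out were these with Plk1, Aurkb and Ccna2, chosen after their values were seen, at 0.37, 0.34 and 0.27. Genes of DNA replication and of cycling cells in general, Pcna and Mki67, were not called, at 0.01 ± 0.06 and -0.12 ± 0.09.

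The inhibitor Cdkn1a and the S-phase factor E2f1 were lower, at -0.54 and -0.29 (edgeR adjusted p = 0.0418 and 0.0457). Both calls were lost without DP Etv2-positive replicate 1 (0.0724 for Cdkn1a, 0.104 for E2f1) and without SP Etv2-negative replicates 1 (0.0722 and 0.0646), 2 (0.139 and 0.105) and 3 (0.0556 and 0.138); Cdkn1a also lost its call without DP Etv2-positive replicate 3 (0.105) and E2f1 without DP Etv2-positive replicate 2 (0.121). In the other comparisons the list had 1 higher and 10 lower members in SP Etv2-negative over DP Etv2-negative cells, 10 higher and 1 lower in SP Etv2-positive over SP Etv2-negative, 7 higher and 7 lower in DP Etv2-positive over DP Etv2-negative, and 1 higher and 3 lower in SP Etv2-positive over DP Etv2-positive cells. In that order, 10.9, 25.5, 30.7 and 13.9% of all genes were called. Cdk1 averaged 172 ± 7.97 CPM in SP Etv2-positive and 172 ± 2.76 CPM in DP Etv2-negative cells, so that SP Etv2-negative cells had the lowest mean of the 4.

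The remaining lists gave little. Of 20 immediate early and stress genes 4 were higher and none lower (20% called, beside 15.6% of all genes). None of the 4 kept its call in all 6 leave-one-out fits, the count being 1 and 2 without DP Etv2-positive replicates 1 and 3 and 0, 2 and 1 without SP Etv2-negative replicates 1, 2 and 3. Of 7 neuroectoderm genes that could be tested, of 15 listed, 1 was higher and 1 lower (28.6% called). No gene was higher without DP Etv2-positive replicate 1 or 2 or SP Etv2-negative replicate 3, and none lower without replicate 1 of either group. Of 13 mitochondrial-encoded genes 1 was lower (7.69% called), mt-Nd4l at -0.49 ± 0.10 (edgeR adjusted p = 0.00602), whose windows are all shared with other genes.

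**Figure D5:**
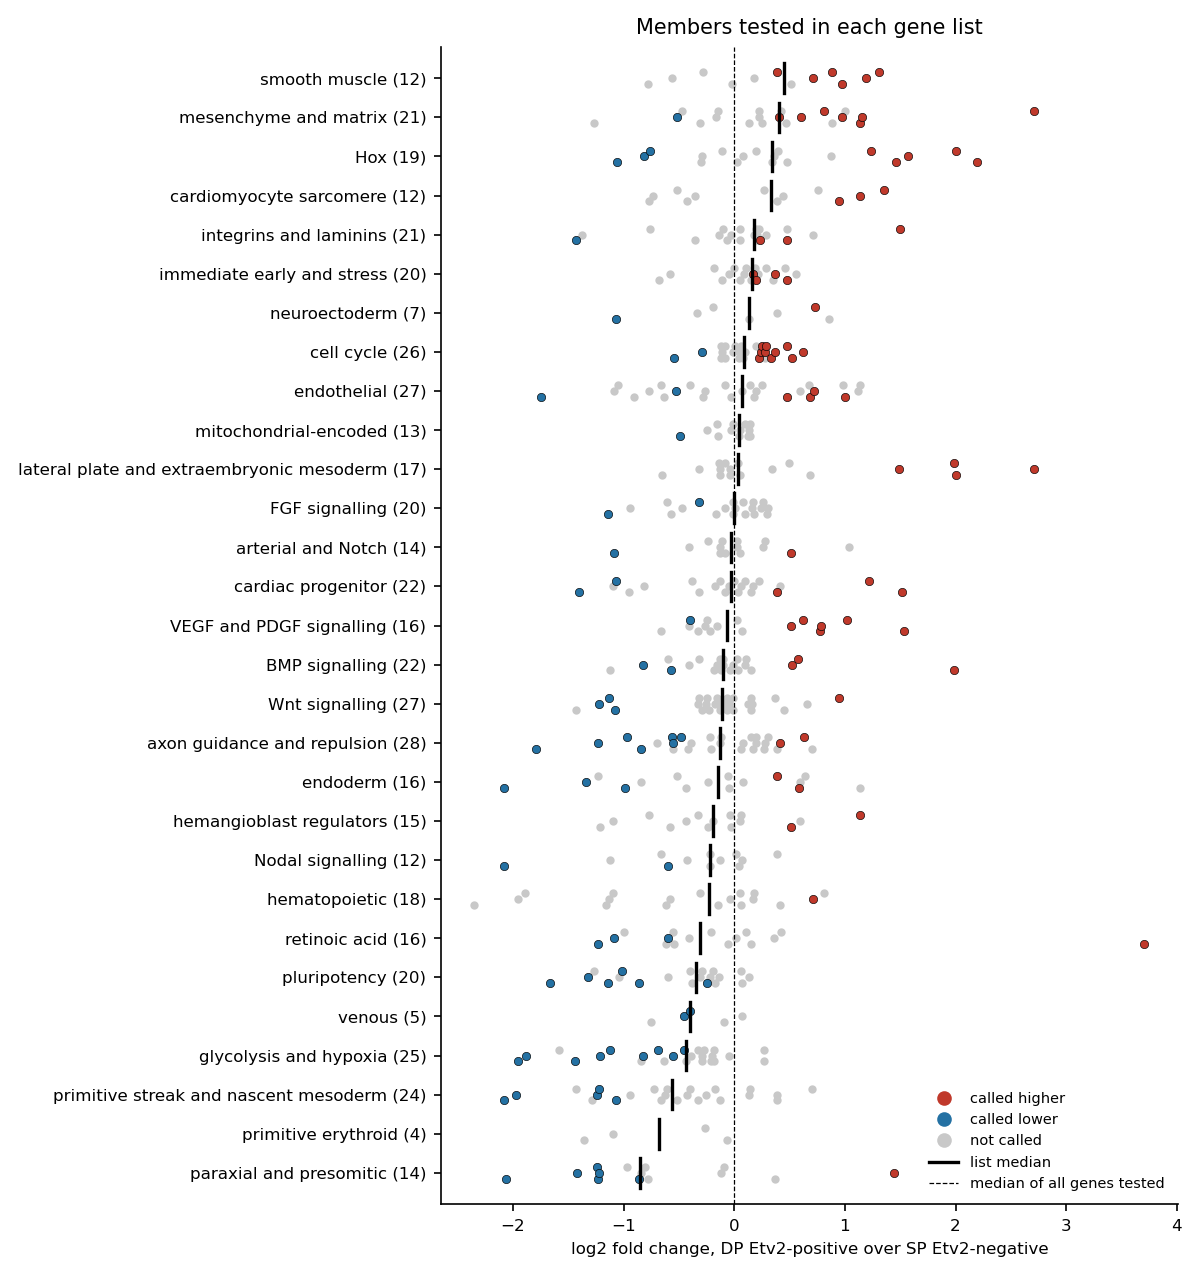
Log2 fold changes of DP Etv2-positive over SP Etv2-negative cells for the tested members of 29 gene lists, 1 row a list and 1 point a gene, ordered by the median of the list. Medians run from -0.85 for paraxial and presomitic genes to 0.45 for smooth muscle genes.

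The markers set for FLK1-positive mesoderm were present in both groups. The sum of Kdr, Pdgfra, T, Mixl1 and Mesp1 was 579.6 to 894 CPM in DP Etv2-positive and 705 to 871 CPM in SP Etv2-negative libraries. Markers of formed tissues summed to less: endothelial markers reached 8.30 to 21.9 CPM in DP Etv2-positive and 6.52 to 14.6 CPM in SP Etv2-negative libraries, and cardiomyocyte markers 27.5 to 32.7 CPM in DP Etv2-positive and 18.4 to 27.7 CPM in SP Etv2-negative libraries. Erythroid markers reached 0 to 0.217 CPM in DP Etv2-positive and 0.143 to 0.648 CPM in SP Etv2-negative libraries, and neuroectoderm markers 2.43 to 3.44 CPM in DP Etv2-positive and 2.42 to 3.83 CPM in SP Etv2-negative libraries. The 5 paraxial markers summed to 8.30 to 12.2 CPM in DP Etv2-positive and 13.5 to 24.1 CPM in SP Etv2-negative libraries. The part of these cells in the differences above was not tested.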

How the data were processed

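Total RNA was sequenced from sorted day 4 embryoid body cells with a stranded total RNA kit, per the labels' protocols. For the 12 reporter-line libraries the authors deposited 1 table of counts by Ensembl ID, with no normalization; featureCounts and mm10 are named in the submitters' processing notes, without a version. The aligner, annotation and strand setting are not given in the sources used here. Of 55487 gene IDs, 55141 were named from GENCODE M21 and 346 were not.

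Genes were kept by filterByExpr and tested with edgeR 4.0.16 (R 4.3.3, limma 3.58.1), with TMM scaling, a quasi-likelihood model of 4 groups over 12 libraries, two-sided tests and Benjamini-Hochberg adjustment; DESeq2 1.42.0 was an alternative. The SE was taken as the size of the log2 change over the root of F. CPM were computed from TMM-scaled library sizes. The test was checked on simulated data. Replicate numbers were not taken to pair libraries. Same-numbered libraries of the compared groups correlated at -0.005, 0.147 and 0.258 after group means were removed, and not all passed the set minimum of 0.1. Libraries of different numbers correlated at -0.224 to 0.088, and whether the numbers pair libraries was not tested.

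Named genes are the sort genes (Etv2, Kdr, Pdgfra, T), the 12 largest increases and 12 largest decreases among calls averaging 5 CPM or more in separate groups (no predicted, ribosomal protein, mitochondrial, histone or small RNA genes), and from each list the 4 largest called changes and any call against its direction. Defining genes of a lineage are given although not called, and other names were chosen after their values were seen. The members and the 29 lists were chosen with earlier results of these data known. For 536 genes, windows of 50 bases, 10 bases apart along the longest transcript, were looked up in the transcripts of other genes; 89 genes had less than 90% and 27 less than 50% unique. Intervals of counts and the level of 3 counts cover counting error only. Alternatives were DESeq2, scaling by RLE or the upper quartile, testing all genes or those with 1 CPM in 3 libraries, a replicate block, only the 6 compared libraries, removal of mitochondrial and ribosomal RNA genes, and leaving out each library or both of high ribosomal RNA share. Promoters were read from RefSeq tables on GRCm38.p6; all but Slc2a3 and Ndufa4l2 of the genes looked up had an entry. Python 3.11.15, numpy 2.4.6, pandas 2.3.3 and matplotlib 3.10.9 were used.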

Additional observations from a re-analysis of the deposited data

How the results depend on the processing

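The 2758 calls were 2742 with RLE scaling, 2691 with upper-quartile scaling, 3466 with no filter on low counts, 2768 with a filter of 1 CPM in 3 libraries, 3076 with DESeq2 and 2721 without mitochondrial and ribosomal RNA genes. With only the 6 compared libraries in the fit they were 1408, of which 753 were higher and 655 lower. Without both libraries of high ribosomal RNA share they were 1768, of which 925 were higher. Leaving out 1 library gave 1207 to 2816 calls, 657 to 1525 higher and 550 to 1291 lower, and 78 to 126 higher and 191 to 317 lower calls of at least 2-fold. A replicate block gave 3746 calls, 1927 higher and 1819 lower; 14 streak genes, 15 of glycolysis and hypoxia, 8 Wnt genes and 5 blood genes were then lower, against 5, 9, 3 and 0, and T was called (edgeR adjusted p = 0.000176, against 0.118). Some genes that lost their call in leave-one-out fits without a block had low adjusted p with it. These were 4.35e-06 for Pdk1, 1.9e-05 for Bnip3, 2.48e-05 for Ddit4 and 0.000466 for Hoxb6 (edgeR). Replicate 1 of the DP Etv2-positive libraries did not correlate best with its own number, and its replicates 2 and 3 did.

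For the 114 named genes, 1706 values under 15 alternatives gave the main call 1497 times, lost it 204 times and gained one 5 times; no direction was reversed, and 68 genes kept their verdict in every alternative that could be run. Kdr was called in 3 and T in 2 of the 15. For the higher and lower counts of the lists, 670 of 870 values stayed within 1.5 times the main count and 200 did not; the cause was not tested. Groups of 3 give an exact permutation p of at least 0.1, so single values over the 6 libraries could not pass 0.05.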
